A study of Mus musculus with 16 samples.

Results

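The IFIT proteins (interferon-induced proteins with tetratricopeptide repeats) are RNA-binding antiviral effectors that cells make in response to type I interferon. IFIT1 binds the 5′ end of RNA whose cap lacks 2′-O methylation, and IFIT2 and IFIT3 act in complexes with each other and with IFIT1. Their genes lie side by side and carry interferon-stimulated response elements (ISREs), the promoter sites through which interferon switches genes on. In macrophages, LPS acts through TLR4 and its adaptor TRIF to switch on IFN-β, which in turn drives these genes. N6-methyladenosine (m6A) is a base modification of mRNA placed by the METTL3 complex, and MeRIP-seq measures it as the reads on a peak after pull-down with an m6A antibody (IP) against those in the same RNA without pull-down (input).

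The members were the peaks listed under the symbols Ifit1, Ifit2 and Ifit3 in a table of read counts on merged peaks, which gave 14 of 7069 peaks. These 3 symbols covered 6 of the 4943 genes by gene ID. Besides Ifit1, Ifit2 and Ifit3 themselves they were Ifit3b, listed under the symbol Ifit3, and Ifit1bl1 and Ifit1bl2, listed under Ifit1. No member peak was shared with another gene. Ifit3 and Ifit3b are near-identical copies, so the division of reads between them is uncertain.

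Peritoneal macrophages (PMs) came from wild-type (WT) and Adap-/- mice on a C57BL/6 background, aged 6 to 8 weeks, and were collected 3 days after an injection of 3% thioglycolate. ADAP is an adaptor protein encoded by Fyb1, and the Adap-/- mice lack it in all cells. The PMs of each genotype were mock-treated or given 1 ug/ml LPS for 6 h. Each of the 4 groups had 2 replicates, each with an input and an IP library, 16 libraries in total. The sources used here do not say whether replicates came from separate animals, so p-values measure the spread between these libraries only.

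The input libraries held 2121313 to 4325961 reads on peaks and the IP libraries 5728590 to 19030373. Fyb1 had 35.7 to 46.7 CPM (read counts scaled to a common library size, with TMM factors) in the Adap-/- input libraries and 244 to 377 in the WT ones. Of 10 macrophage markers 8 were in the table, and their summed input level lay between 9994 and 11868 CPM over all 8 input libraries. The sum hides changes of single markers. With LPS in WT, Fcgr1, Cd14, Mertk and Lyz2 changed by 3.20, 2.08, 1.60 and -0.68 on the log2 scale. In Adap-/- PMs the same markers changed by 2.31, 2.18, 1.04 and -0.55. Adgre1 rose there as well, by 0.90, whereas its change of 0.20 in WT did not pass at an adjusted p below 0.05. After LPS, Fcgr1 (-1.28) and Mertk (-0.32) were lower and Cd14 (0.49) was higher in Adap-/- than in WT PMs. The other macrophage markers did not pass there at an adjusted p below 0.05, and none passed between genotypes in mock. Of the markers of other cell types, the table held only Csf3r of the neutrophil list and Tcf4, Bst2 and Irf8 of the plasmacytoid dendritic cell list, since it lists only genes with a peak. Csf3r lay at 123 to 137 CPM in WT mock, 163 to 164 in Adap-/- mock, 306 to 369 in WT LPS and 369 to 388 in Adap-/- LPS input. The other 3 summed to 68.0 to 87.0 CPM over the mock inputs, to 222 and 301 in WT LPS and to 163 and 261 in Adap-/- LPS input. Their part in the results was not tested. In bulk libraries, more RNA per cell and more cells that express a gene cannot be told apart.

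Matches to the ISRE core in the promoters of the family are shown first. Whether they have a part in the LPS response was not tested. RefSeq promoters (build GRCm38.p6, 300 bases each, from 250 before the start to 50 after it) were found for all 6 genes, 9 promoters in total. They were searched on both strands for the ISRE core, TTTC followed by any 2 bases and TTTC again, and for the same core with AG directly before it, which is a subset of the first. The shorter form was found in promoters of 5 of the 6 genes, against 3.99% of the 27025 genes searched, and in 6 of the 9 promoters, against 3.44% of all 32851. The longer one was found for 4 of the 6 genes, against 0.303% of genes. Neither was in the promoters listed for Ifit2, which says only that these letters are not in those windows. The matches stand in capitals, 5′ to 3′ on the strand of the gene. The match in the second promoter of Ifit1bl1 (chr19:34599436-34599455) and the matches of Ifit1bl2 are not printed.
Ifit1, chr19:34640780-34640799, + strand: ttcagTTTCACTTTCcagtc
Ifit1, chr19:34640799-34640818, + strand: ctcagTTTCAGTTTCtcact
Ifit3, chr19:34583368-34583387, + strand: gtaagTTTCACTTTCctctt
Ifit3, chr19:34583402-34583421, + strand: gtctgTTTCAGTTTCtactt
Ifit3b, chr19:34607764-34607783, + strand: gtaagTTTCACTTTCctctt
Ifit3b, chr19:34607798-34607817, + strand: gtctgTTTCAGTTTCtactt
Ifit1bl1, chr19:34602058-34602077, - strand: gtaggTTTCATTTTCtgtag
Both windows of Ifit3 read the same, letter for letter, as those of Ifit3b. The matches of Ifit1 began 104 and 85 bases before its start. Ifit1bl2 starts close by on the opposite strand, and its promoter holds the same stretches of DNA as that of Ifit1. The genes with a match are thus not all separate finds, which the shares of all genes do not allow for.

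In the table, whose build is GRCm39, the 6 genes lie on chromosome 19 between 34528110 and 34627409. Ifit2 (ENSMUSG00000045932, + strand) had 1 peak, chr19:34547671-34553817, annotated from the 5′ UTR to the 3′ UTR. Ifit1 (ENSMUSG00000034459, + strand) had a peak of the same reach, chr19:34618295-34626853, and a second one within the 3′ UTR, chr19:34627128-34627403. These long peaks span 6146 and 8558 bases, whereas the median peak of the table was 175 bases long. Ifit3 (ENSMUSG00000074896, + strand) had an upstream peak, chr19:34564486-34565486, annotated as coding sequence and stop codon, and a 3′-most peak, chr19:34565561-34566131, annotated as coding sequence, stop codon and 3′ UTR. Ifit3b (ENSMUSG00000062488, + strand) had 3 short peaks in coding sequence and a 3′-most peak with the annotation of that of Ifit3, chr19:34590026-34590426. Ifit1bl1 (ENSMUSG00000079339, - strand) had 3 peaks and Ifit1bl2 (ENSMUSG00000067297, - strand) had 2.

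To ask how the RNA of the family responded to LPS, input reads were summed over the peaks of each gene. All 6 genes rose after LPS in both genotypes, where 30.2% of the 4742 genes tested rose in WT and 28.5% in Adap-/- PMs. Of the 6, Ifit1bl2 had 3 mock input reads in WT and 0 in Adap-/- PMs. It passed the filter on low counts only through its LPS libraries, so its rise followed from the filter and adds nothing to the count. Over the 6 genes together, the summed input level was 230 and 360 CPM in the WT mock replicates and 45336 and 48067 CPM after LPS. In Adap-/- PMs it was 438 and 459 CPM in mock and 25372 and 24977 CPM after LPS. No mock library came near an LPS library, and the LPS libraries of the genotypes did not overlap. How many of all genes separate in this way with 2 replicates a group was not counted. Order and overlap of groups, here and below, thus only describe the values.

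Ifit2 had 114 and 199 CPM in WT mock, 24375 and 26890 in WT LPS, 212 and 219 in Adap-/- mock, and 13694 and 13339 in Adap-/- LPS input. Both Adap-/- replicates lay above both WT replicates in mock and below both after LPS. With LPS it rose by 7.36 on the log2 scale (SE 0.24, 164-fold) in WT and by 5.97 (SE 0.22, 62.7-fold) in Adap-/- PMs.

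Ifit1 had 61.6 and 95.7 CPM in WT mock, 11632 and 12347 in WT LPS, 119 and 137 in Adap-/- mock, and 6525 and 6792 in Adap-/- LPS input. The order of the groups was that of Ifit2, with no overlap between any of the 4. Its rise was 7.25 on the log2 scale (SE 0.20) in WT and 5.70 (SE 0.19) in Adap-/- PMs.

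Ifit3 had 47.8 and 59.0 CPM in WT mock, 8046 and 7613 in WT LPS, 94.7 and 91.5 in Adap-/- mock, and 4567 and 4393 in Adap-/- LPS input. Its copy Ifit3b had 2.30 and 2.96, 955 and 874, 9.19 and 8.49, and 427 and 310 CPM in the same order. For both genes the 4 groups did not overlap and stood in the order WT mock, Adap-/- mock, Adap-/- LPS, WT LPS. The rise was 7.20 (SE 0.15) and 5.59 (SE 0.14) on the log2 scale for Ifit3 in WT and Adap-/- PMs. For Ifit3b it was 8.43 (SE 0.22) and 5.38 (SE 0.18).

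Ifit1bl1 had 3.58 and 3.23 CPM in WT mock, 322 and 334 in WT LPS, 2.62 and 3.16 in Adap-/- mock, and 153 and 136 in Adap-/- LPS input. The 4 mock libraries lay within 1 CPM of each other, and the LPS levels of the genotypes did not overlap. Ifit1bl2 was barely measured, with 49 reads over both WT LPS and 39 over both Adap-/- LPS input libraries. Mock libraries had 3 reads in WT, a ratio of LPS to mock of 20.8 (exact 95% interval 6.71 to 104, counting error only). Neither Adap-/- mock library had a read, and against 3 counts over the group the level after LPS was at least 16.4-fold higher. Levels are not compared between genes, because the spliced length under the long peaks is not known here.

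**Figure D1:**
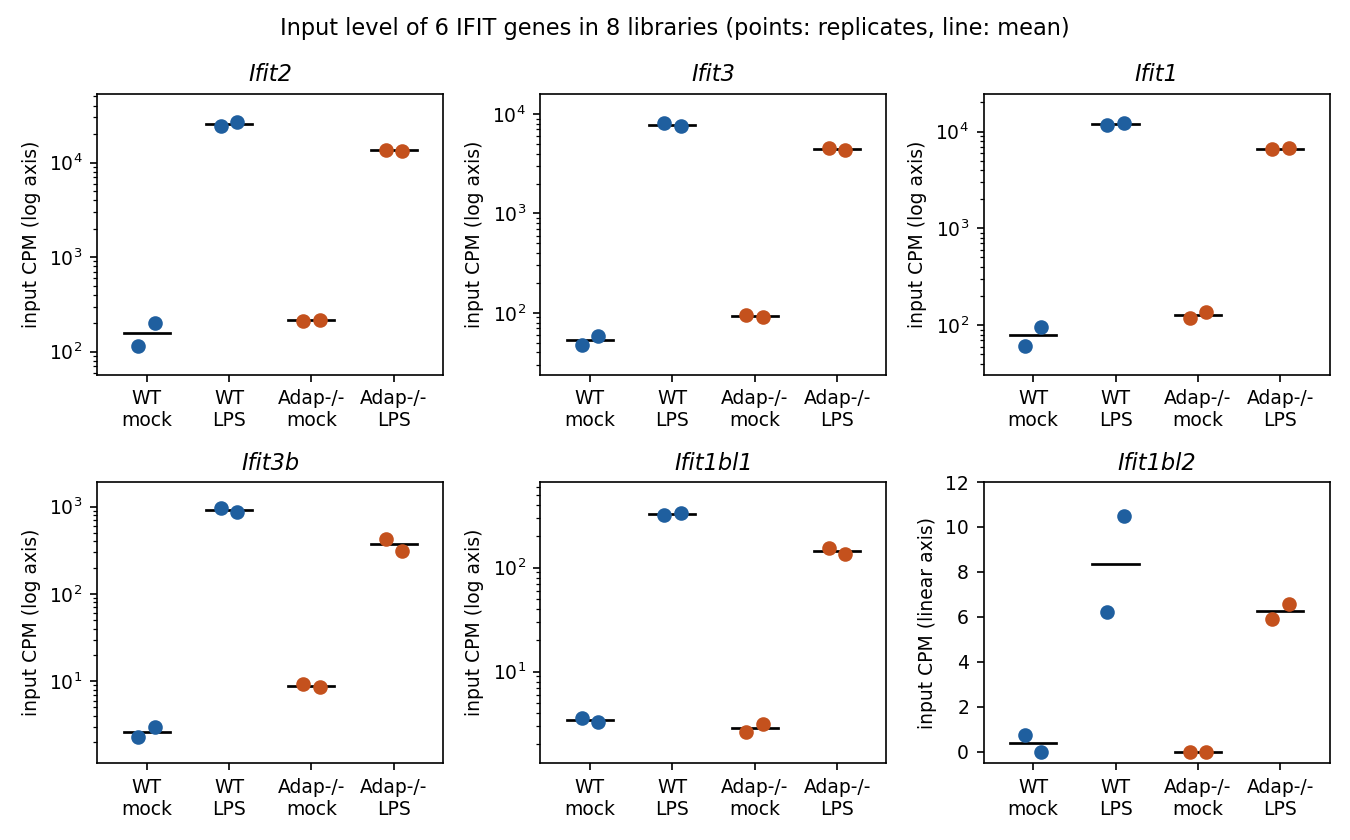
Input level (CPM after TMM scaling, log axis, linear for Ifit1bl2) of each IFIT gene in the 8 input libraries, with points for the replicates and a line for their mean. For Ifit2, Ifit3, Ifit1 and Ifit3b the groups stand in the order WT mock, Adap-/- mock, Adap-/- LPS and WT LPS without overlap. How many of all genes do so was not counted, and the mock difference of Ifit2 did not pass its test.

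The next comparison asked whether loss of ADAP changed the level of the family. After LPS, 5 of the 6 genes were lower in Adap-/- than in WT PMs, where 9.78% of all genes were lower. The log2 differences were -0.92 for Ifit2 (SE 0.18, adjusted p = 0.00249), -0.81 for Ifit3 (SE 0.11, adjusted p = 0.000284) and -0.85 for Ifit1 (SE 0.15, adjusted p = 0.00142). Ifit3b differed by -1.31 (SE 0.12, adjusted p = 7.28e-06) and Ifit1bl1 by -1.18 (SE 0.10, adjusted p = 5.36e-06). Ifit1bl2 had a difference of -0.41 (SE 0.43, adjusted p = 0.583), which did not pass. Fitted one by one, 12 of the 13 member peaks that could be tested in input were lower, with 9.18% of all peaks lower.

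In mock-treated PMs some members differed the other way. Ifit3, Ifit1 and Ifit3b, 3 of the 6 genes, were higher in Adap-/- PMs, where 8.71% of all genes were higher. The log2 differences were 0.80 for Ifit3 (SE 0.14, adjusted p = 0.000997), 0.71 for Ifit1 (SE 0.17, adjusted p = 0.00997) and 1.74 for Ifit3b (SE 0.36, adjusted p = 0.00389). The call of Ifit3b rests on 9 and 11 reads in the WT mock inputs. Fitted one by one, none of its 4 peaks passed (edgeR quasi-likelihood test, lowest adjusted p = 0.0785). Without Adap-/- mock replicate 2, Ifit1 no longer passed (0.60, adjusted p = 0.123). Ifit2 had a difference of 0.46 (SE 0.19, adjusted p = 0.111) that did not pass, and it rested on the WT mock replicates. Without replicate 2 of these it was 0.92 (adjusted p = 0.000190), and without replicate 1 it was 0.12 (adjusted p = 0.535). Ifit1bl1 had -0.23 (SE 0.33, adjusted p = 0.742), and Ifit1bl2 had 3 mock reads in WT and 0 in Adap-/- input, too few for a value.

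The difference between the LPS responses was tested by itself. The rise was smaller in Adap-/- PMs for 4 of the 6 genes at an adjusted p below 0.05, where 1.29% of all genes passed in that direction. The log2 values were -1.39 for Ifit2 (SE 0.26, adjusted p = 0.0122), -1.61 for Ifit3 (SE 0.18, adjusted p = 0.000261), -1.56 for Ifit1 (SE 0.23, adjusted p = 0.00179) and -3.04 for Ifit3b (SE 0.37, adjusted p = 0.000350). Ifit1bl1 had -0.95 (SE 0.36, adjusted p = 0.300) and did not pass, nor did Ifit1bl2, on the few mock reads given above. Ifit2 lost its call without Adap-/- mock replicate 2 (adjusted p = 0.0689) and without Adap-/- LPS replicate 2 (adjusted p = 0.0524). All adjusted p-values are from edgeR's quasi-likelihood test over 4742 genes.

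**Figure D2:**
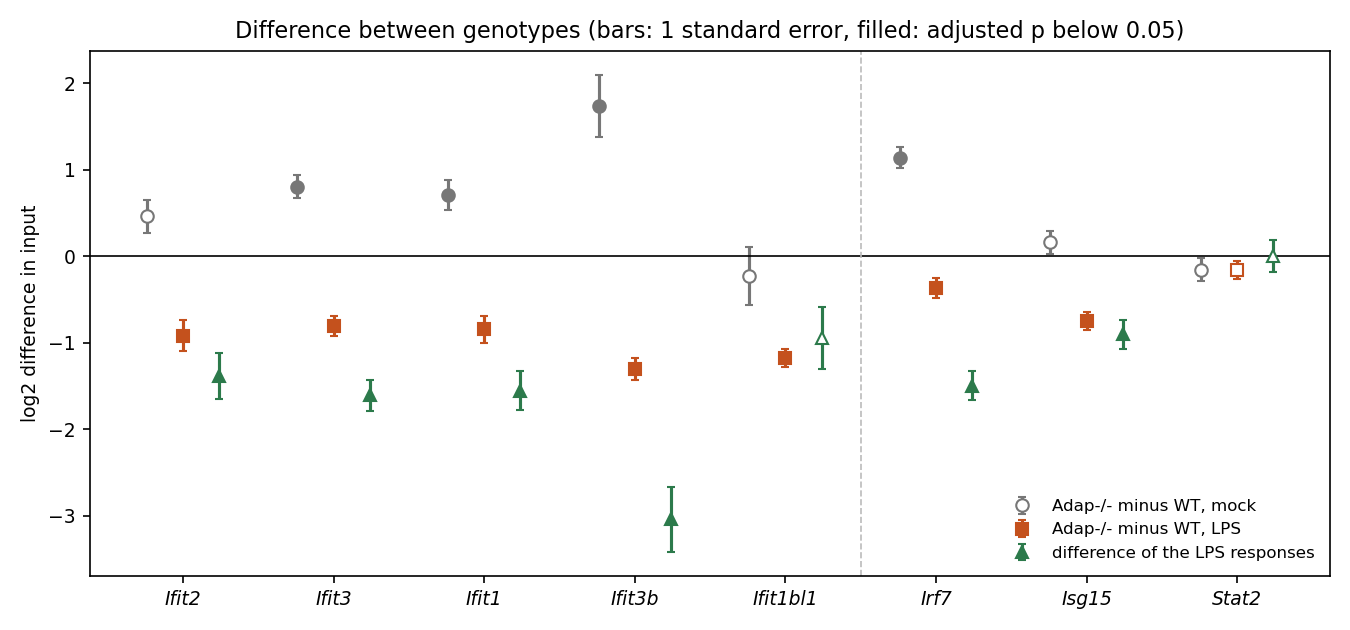
Log2 difference in input between Adap-/- and WT PMs in mock (circles) and after LPS (squares), and the difference of the LPS responses (triangles), with bars of 1 SE and filled symbols for an adjusted p below 0.05. Of the 5 IFIT genes shown (Ifit1bl2 is left out) Ifit1bl1 alone lies below 0 in mock, at -0.23, and all lie between -0.81 and -1.31 after LPS. Irf7, Isg15 and Stat2 stand to the right of the dashed line.

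The rest of the interferon pathway was read from a list of 76 genes, of which 61 were tested. After LPS, 57 rose in WT (Tlr4 fell) and 57 in Adap-/- PMs (none fell), with medians of 4.47 and 4.10 on the log2 scale against -0.03 and -0.03 over all genes, of which 30.2% and 28.5% rose. In mock, 14 were higher and 6 lower in Adap-/- PMs, with a median of 0.08 against 0.01 over all genes, of which 8.71% were higher. Among LPS-treated PMs, 20 were lower and 2, Tlr4 and Ticam2, higher in the Adap-/- ones, with a median of -0.28 against -0.01 over all genes, of which 9.78% were lower. The shares of all genes lower in mock and higher after LPS are not given here, so the 6 and the 2 have no background. The smaller response passed for 15 of 61, against 1.29% of all genes, and none passed in the other direction. Of the 40 effectors tested, 16 were lower after LPS and 12 had a smaller response.

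By role, no interferon ligand of the list was among the genes tested, so IFN-β itself was not analysed here. The receptor chain Ifnar1 had 370 and 387 CPM in WT mock, 533 and 532 in WT LPS, 420 and 424 in Adap-/- mock, and 487 and 534 in Adap-/- LPS input. After LPS its levels in the genotypes overlapped, and the difference between them was -0.06 on the log2 scale (adjusted p = 0.701).

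Stat2 encodes a transcription factor of interferon signalling. It had 51.7 and 61.2 CPM in WT mock, 647 and 764 in WT LPS, 53.5 and 47.6 in Adap-/- mock, and 618 and 644 in Adap-/- LPS input. Its levels in the genotypes overlapped in mock and did not after LPS, but the difference after LPS, -0.16 on the log2 scale (adjusted p = 0.352), did not pass.

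Irf7, the factor that amplifies interferon production, had 415 and 392 CPM in WT mock, 12587 and 12395 in WT LPS, 888 and 887 in Adap-/- mock, and 10327 and 9072 in Adap-/- LPS input. Its 4 groups stood in the same order as those of Ifit1, Ifit2 and Ifit3, without overlap. It was higher by 1.14 in Adap-/- mock (adjusted p = 2.51e-05), differed by -0.36 after LPS (adjusted p = 0.0449), and its response differed by -1.50 (adjusted p = 0.000261). The ubiquitin-like effector Isg15 differed by -0.75 after LPS (adjusted p = 0.000284) and by 0.16 in mock (adjusted p = 0.445). Tlr4, the LPS receptor, fell with LPS in WT by 0.36 (adjusted p = 0.0273) and was higher in Adap-/- than in WT PMs after LPS by 0.59 (adjusted p = 0.00636).

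Likeness of pattern was taken as the distance between genes over the 8 input libraries, in log2 CPM centred per gene, among all genes tested. The gene nearest to Ifit1 was Ifit3 (distance 0.366), then Ifit2 (0.406) and Cd40 (0.737). The nearest to Ifit2 after Ifit1 were Rsad2 (0.538) and Cd69 (0.618), and to Ifit3 after Ifit1 it was Cd40 (0.648). Ifit3b stood farther off, with Ifit3 as its nearest gene (1.19). Ifit1bl1 was nearest to Isg20 (0.729), Lhx2 (1.02) and Isg15 (1.04), and Ifit1bl2 to Mlkl (1.54).

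The m6A comparisons used the ratio of IP to input CPM on each peak, scaled over all 16 libraries so that the average peak of the table lies near 1. A ratio of 1 thus means pulled down like the average listed peak, not absence of m6A. After LPS, replicates were close on the strongly covered peaks. On the Ifit2 peak the ratio was 0.451 and 0.440 in WT and 0.502 and 0.458 in Adap-/- PMs. On the long Ifit1 peak it was 0.709 and 0.718 in WT and 0.760 and 0.711 in Adap-/- PMs. Both peaks lay below 1 in all 4 LPS replicates.

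Peaks of the same gene differed. On Ifit3, the 3′-most peak had ratios of 1.44 and 1.62 in WT and 1.41 and 1.32 in Adap-/- PMs after LPS. The upstream peak had 0.275 and 0.265 in WT and 0.323 and 0.344 in Adap-/- PMs. Within each replicate the first was 3.85 to 6.11 times the second.

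On Ifit3b, too, the 3′-most peak had the highest ratio of the gene. Its values were also the highest of the family after LPS, 4.28 and 5.46 in WT and 6.00 and 9.72 in Adap-/- PMs. The 3 peaks in its coding sequence lay between 0.191 and 1.03. On Ifit1 the peak at the 3′ end lay below the long one, since it had 0.284 and 0.287 in WT and 0.358 and 0.370 in Adap-/- PMs. The 3 peaks of Ifit1bl1 lay between 0.218 and 0.890, and the ratios of Ifit1bl2, on at most 15 input reads a peak and library, between 0.674 and 4.38.

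Tested within each group, IP was above input on the 3′-most peak of Ifit3b in Adap-/- LPS PMs, by 2.87 on the log2 scale (SE 0.85, adjusted p = 0.0272). It was the only one of the 14 peaks that passed there, where 15.9% of all peaks were higher and 14.4% lower, and it did not pass once any 1 of the 4 LPS replicates was left out. In WT LPS PMs the same peak had 2.27 (SE 0.83, adjusted p = 0.0676), and none of the 14 peaks passed, where 12.3% of all peaks were higher and 11.9% lower. The spread in these tests is shared with the mock libraries, whose IP replicates differ greatly as given below. Without WT mock IP replicate 1 and Adap-/- mock IP replicate 2, the 3′-most peaks of Ifit3b and Ifit3 were higher in IP after LPS in both genotypes, 2 of 14 where 17.8% of peaks were higher in WT and 21.4% in Adap-/- PMs. In that fit 7 of 14 were lower in WT and 6 of 14 in Adap-/- PMs, the Ifit2 peak and both Ifit1 peaks among them, where 22.8% and 24.4% of all peaks were lower.

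**Figure D3:**
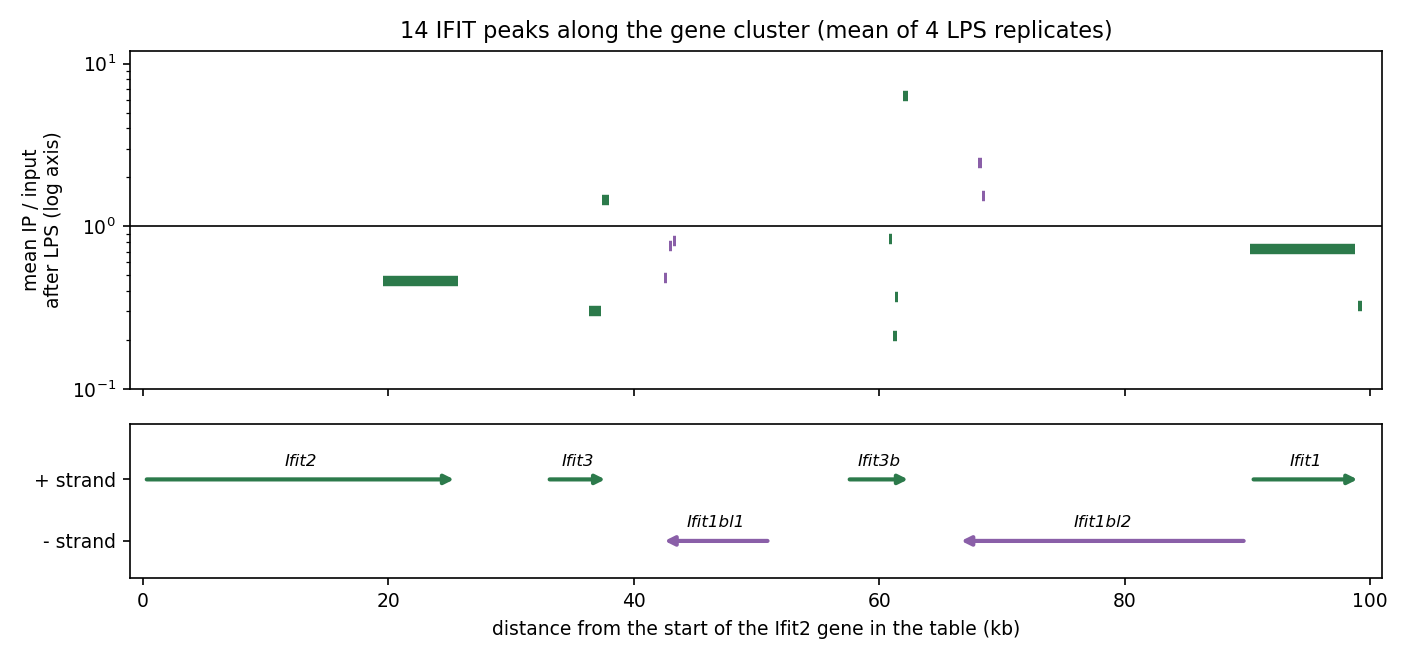
Mean IP to input ratio after LPS (log axis, mean of the 4 LPS replicates) of the 14 IFIT peaks against distance in kb from the start of Ifit2, with arrows below for the genes and their strand. The 3′-most peaks of Ifit3 (1.45) and Ifit3b (6.37) and the thinly covered peaks of Ifit1bl2 stand above 1, and all others below it.

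Whether loss of ADAP changed m6A on the family after LPS was tested as the difference of the ratio between genotypes. None of the 14 peaks passed, at an adjusted p or at an unadjusted p below 0.05, and 0.0142% of all peaks, a single one, passed in the table. The log2 differences lay between -0.50 and 0.60, the lowest adjusted p being 0.995. For the Ifit2 peak the difference was 0.11 (SE 1.26), for the long Ifit1 peak 0.04 (SE 1.20), for the Ifit3 3′-most peak -0.16 (SE 0.89) and for that of Ifit3b 0.60 (SE 1.13). Fitted on the 8 LPS libraries alone, the lowest adjusted p was 0.435, and no DESeq2 adjusted p was under 0.999. With SEs near 1 on the log2 scale, a 2-fold change was not detectable in this fit. Without WT mock IP replicate 1 and Adap-/- mock IP replicate 2, the differences lay between -0.49 and 0.62 and none of the 14 passed (lowest adjusted p = 0.371), where 0.637% of all peaks did. There the differences were 0.13 (SE 0.27) for Ifit2, 0.06 (SE 0.22) for the long Ifit1 peak, -0.14 (SE 0.16) for the 3′-most peak of Ifit3 and 0.62 (SE 0.29) for that of Ifit3b.

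**Figure D4:**
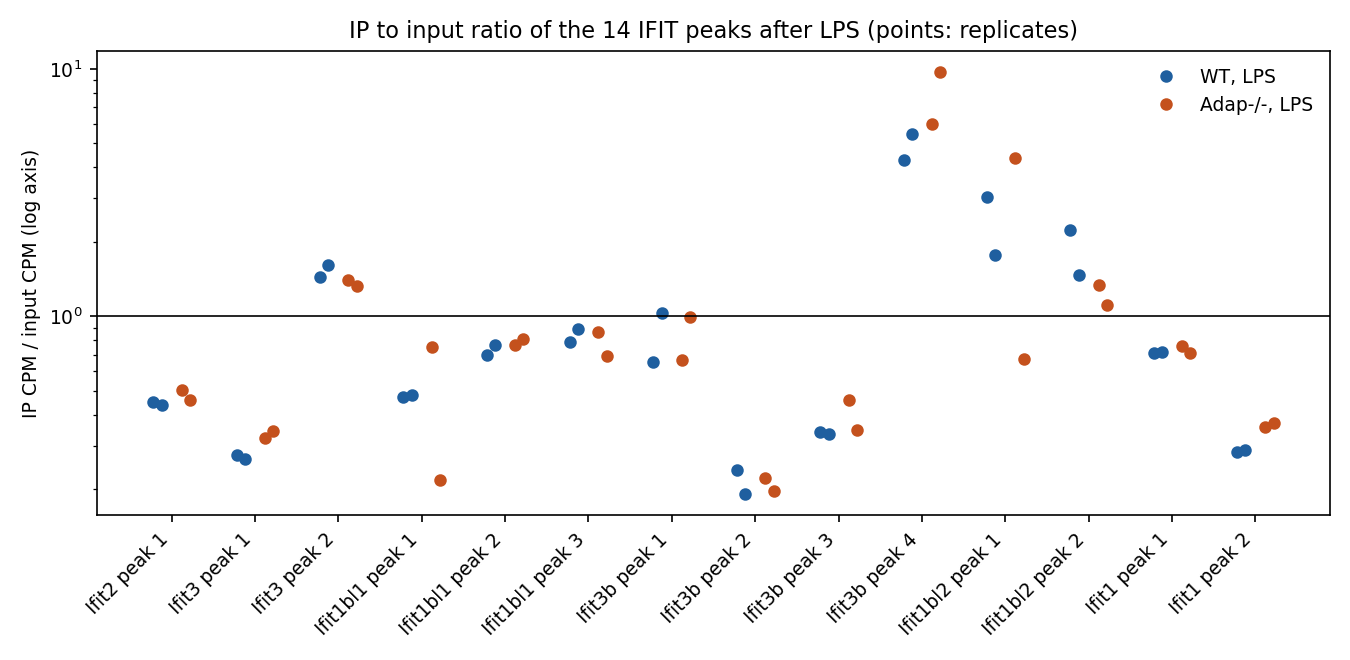
Ratio of IP to input CPM (log axis) on each of the 14 IFIT peaks after LPS, with points for the 2 replicates of WT and of Adap-/- PMs. Genotypes differ by less than peaks do: they lie farthest apart, among the well-covered peaks, on peak 4 of Ifit3b (4.28 and 5.46 against 6.00 and 9.72), while the values of different peaks range from 0.191 to 9.72.

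The mock IP libraries fell apart within each genotype. The 14 peaks summed to 8850 CPM in WT mock IP replicate 1 and 732 in replicate 2, and to 1003 CPM in Adap-/- mock IP replicate 1 and 4797 in replicate 2. The matching mock inputs held 349 to 680 CPM on the same peaks. This was not particular to the IFIT peaks. On 290 other peaks, chosen for an LPS rise in input above 4 (log2) in both genotypes, WT mock IP replicate 1 had 17.6% and Adap-/- mock IP replicate 2 had 14.9% of the mean LPS input level. The remaining mock IP libraries had 1.21% and 1.73% and the mock inputs 1.48% to 2.17%, while the LPS IP libraries had 19.5% to 23.9%.

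**Figure D5:**
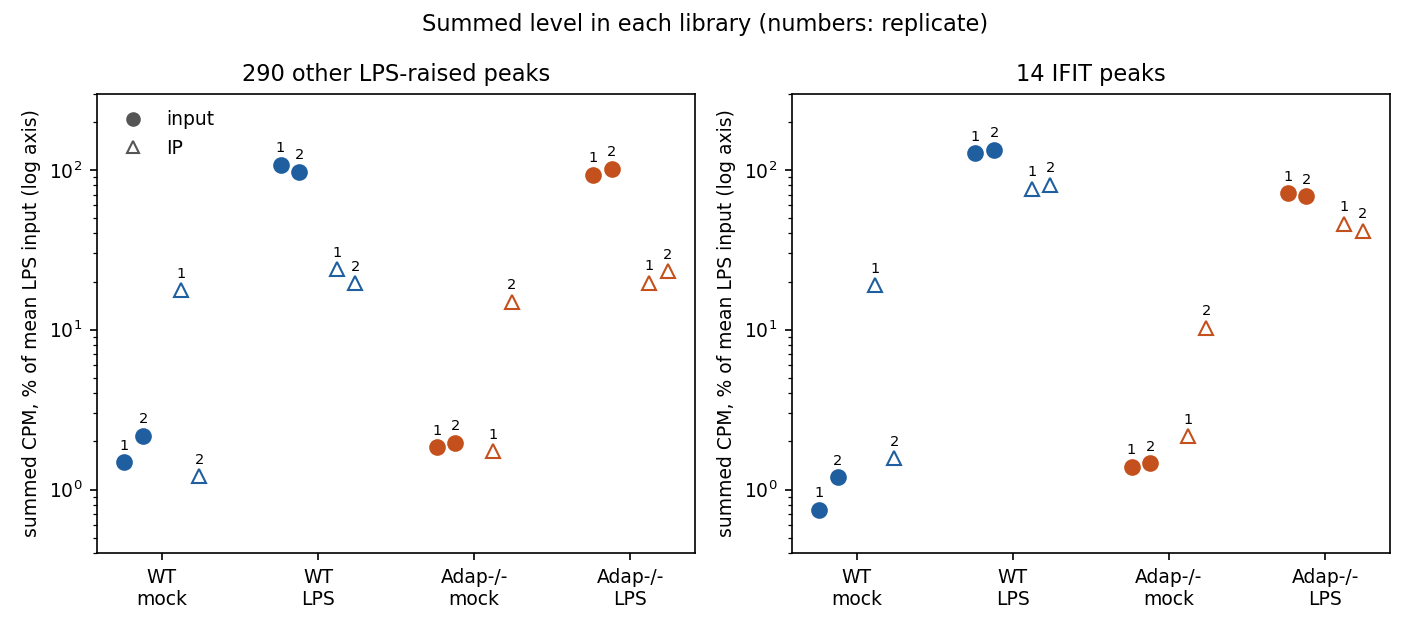
Summed CPM (log axis, percent of the mean of the 4 LPS input libraries) of 290 other LPS-raised peaks and of the 14 IFIT peaks in each library, circles for input and triangles for IP, numbered by replicate. WT mock IP replicate 1 and Adap-/- mock IP replicate 2 stand near the LPS IP libraries on the 290 peaks. On the IFIT peaks they lie between the other mock IP libraries (1.57% and 2.15%) and the LPS IP libraries (41.5% to 80.5%).

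Mock ratios of the members differed widely between replicates. On the Ifit2 peak they were 26.4 and 1.18 in WT and 1.44 and 7.70 in Adap-/- PMs, and on the long Ifit1 peak 23.6 and 1.21, and 1.64 and 6.47. The 3′-most peak of Ifit3 had 22.9 and 2.85 in WT and 3.01 and 7.03 in Adap-/- PMs. The upstream peak of Ifit3 had 24.9 and 1.10, and 0.990 and 5.83, and the 3′ UTR peak of Ifit1 had 40.8 and 1.54, and 1.11 and 8.45. For these 5 peaks the mock ratios, also those of the replicates that did not stand apart, lay above those of the LPS replicates of that genotype. The 3′-most peak of Ifit3b was an exception, with 51.9 and 4.93 in WT mock and 2.16 and 7.73 in Adap-/- mock against 4.28 to 9.72 after LPS.

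With all libraries, no ratio passed in LPS against mock in either genotype, where 0% of all peaks did. On the Ifit2 peak the log2 change was -4.53 (SE 1.32, adjusted p = 0.251) in WT and -3.27 (SE 1.29, adjusted p = 0.372) in Adap-/- PMs. The next counts have no share of all peaks beside them, so they do not say whether the members differ from other peaks. At an unadjusted p below 0.05, in either direction, there were 12 of 14 peaks in WT and 6 of 14 in Adap-/- PMs. DESeq2 called 8 of 14 lower in WT and none in Adap-/- PMs. Without WT mock replicate 2, input and IP, 7 of 14 were lower in WT.

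Without the 2 mock IP libraries that stood apart, the ratio fell with LPS on 7 of 14 peaks in WT and on 6 of 14 in Adap-/- PMs, where it fell on 1.73% and 2.41% of all peaks. The peaks of Ifit2, Ifit3 and Ifit1 were among those that fell. By the median, the 290 other LPS-raised peaks fell no less than the members, with values given below. The shares over all peaks therefore do not set the family apart from other LPS-raised peaks. On the Ifit2 peak it fell by 1.82 on the log2 scale (SE 0.30, adjusted p = 0.00762) in WT and by 1.62 (SE 0.30, adjusted p = 0.0137) in Adap-/- PMs. On the long Ifit1 peak it fell by 1.10 (SE 0.25, adjusted p = 0.0485) and by 1.09 (SE 0.25, adjusted p = 0.0378). The 3′-most peak of Ifit3 fell by 1.09 (SE 0.19, adjusted p = 0.00810) and by 1.12 (SE 0.18, adjusted p = 0.00586).

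The upstream peak of Ifit3 fell by 2.25 (SE 0.20, adjusted p = 0.000218) in WT and by 1.70 (SE 0.20, adjusted p = 0.000881) in Adap-/- PMs. The 3′-most peak of Ifit3b had 0.10 (SE 0.79, adjusted p = 0.991) and 1.55 (SE 0.47, adjusted p = 0.103). Each mock group has 1 IP library in this fit and is assumed to vary like the LPS groups. On the 290 other LPS-raised peaks the median log2 changes were -1.64 in WT and -2.04 in Adap-/- PMs, against -1.42 and -1.66 over the 14 members. These 290 peaks were chosen by their rise in the same input libraries that form the denominator of the ratio. Part of their fall can follow from that choice alone. The fall with LPS did not differ between genotypes on any of the 14 peaks at an adjusted p below 0.05, with or without these libraries, where 0% of all peaks passed.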

How the data were processed

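MeRIP-seq of 4 groups of PMs gave 8 input and 8 IP libraries. The table deposited by the authors holds raw read counts on merged peaks, made per the labels with Bowtie2 2.2.8, MACS2 2.1.2 and DiffBind 2.8 on GRCm39. Its 8094 lines are 7069 distinct peaks, and the RNA was broken into fragments of about 100 nt. Library molecules carried no identifiers, so intervals cover counting error only. Genes were named by gene ID, since 86 symbols cover more than 1 gene.

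Tests were run with the quasi-likelihood method of edgeR 4.0.16 under R 4.3.3, after TMM scaling. Low features were dropped by filterByExpr (10 counts, 15 in total), and p-values were adjusted after Benjamini and Hochberg with a threshold of 0.05. Input counts were summed over all peaks of a gene (4742 genes tested, 201 left out, 8 libraries). The ratio of IP to input was fitted per peak on all 16 libraries (7058 peaks tested, 11 left out). SEs were taken from the log2 change and the F statistic. Levels compare RNA within the listed peaks only. TMM factors were 0.651 to 0.737 in LPS and 1.39 to 1.51 in mock input. The count steps were run on simulated counts with set changes. For the ratio the simulated spread was smaller than that of these peaks, so the run does not show how well the ratio test works here.

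The members, the interferon and marker lists and the mock IP libraries left out were chosen with earlier results of these data known. Named genes were all members, the pathway genes fixed for naming where tested (1 is not reported here), and the 3 nearest genes by pattern. Tlr4 was named after its values were seen. Replicate numbers were checked as pairs. Differences between replicates correlated across groups with r from -0.078 to 0.164 in input, and between IP and input of the same number from -0.098 to 0.0908, so numbers were not taken as pairs in the main fits. Replicates of a group differed by more than sampling noise (chi-square per degree of freedom 3.35 to 9.03 in input). Alternatives were RLE, upper quartile and separate scaling, DESeq2 1.42.0, other filters, fewer libraries, a replicate block and each replicate left out.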

Additional observations from a re-analysis of the deposited data

Results flagged for a closer look

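The LPS response differed between the genotypes, by an interaction test, for 4 IFIT genes and, among the other interferon genes named with values, for Irf7 and Isg15. The log2 response in Adap-/- minus that in WT PMs was -1.39 for Ifit2, -1.61 for Ifit3, -1.56 for Ifit1 and -3.04 for Ifit3b. For Irf7 it was -1.50 and for Isg15 -0.91 (adjusted p = 0.0111, edgeR quasi-likelihood test). The mock level of Ifit3b, on which its value rests, was 2.30 and 2.96 CPM in WT and 9.19 and 8.49 CPM in Adap-/- input. No group had over 2 replicates, too few for a test of single libraries as outliers.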

How the results depend on the processing

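In input, each of 84 recomputed counts of called IFIT genes stayed within 1.5 times the count reported, and 399 of 404 recomputed log2 changes kept their direction and their side of the threshold. That limit lets a count of 6 become 4 and a count of 3 become 2. With at least 10 counts in every input library, a filter that drops Ifit3b and Ifit1bl2, 4 genes rose after LPS in each genotype. Genes higher in Adap-/- mock numbered 2 with that filter and 2 with each peak tested by itself. Upper quartile scaling moved the LPS changes most among the scalings, to 6.91 for Ifit3 in WT and 5.31 in Adap-/- PMs. With the replicate number as a replicate block, the LPS response of Ifit2 differed by -1.40 (adjusted p = 0.00705), and no call in input changed. The difference of Ifit1bl2 after LPS ranged from -0.75 to 0.0026 with a replicate left out.

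The ratio of IP to input depended on the libraries. Except for the main fit and the fit without the 2 IP libraries, the counts below have no share of all peaks beside them. The number of peaks lower after LPS in WT was 0 as reported, 8 with DESeq2, 2 with a replicate block in which the WT mock numbers were crossed, and 7 without the IP libraries Adap-/- mock 2 and WT mock 1. It ranged from 0 to 7 with a replicate left out (7 without WT mock replicate 2), and in Adap-/- PMs it was 6 without these IP libraries. The replicate block pairing IP with input of the same number called none in either genotype. On the 3′-most peak of Ifit3b the change in WT ranged from -3.42 to 0.0019 with a replicate left out and was 0.099 without the 2 IP libraries. In Adap-/- PMs it ranged from -0.13 to 1.72. For the long Ifit1 peak the difference between genotypes after LPS ranged from -0.0080 to 0.091.

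IP counts alone, without input, follow the level of the RNA and turned the sign. After LPS they rose by 2.61 and 2.49 on the Ifit2 peak, 3.23 and 2.97 on the long Ifit1 peak and 3.92 and 3.53 on the Ifit3 3′-most peak in WT and Adap-/- PMs, and by 6.06 on that of Ifit3b in WT. Between genotypes after LPS they differed by -0.85, -0.84 and -1.07 on the peaks of Ifit2, Ifit1 and Ifit3b.

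Of the 14 peaks, those higher in IP in WT LPS PMs numbered 0 as reported, 1 with DESeq2 and with the replicate block, 2 without the 2 IP libraries, and 0 to 1 with a replicate left out. Those lower numbered 0, then 1, 2, 7, and 0 to 2. The counts rose without either WT mock replicate. In Adap-/- LPS PMs, 1 was higher as reported, 2 without the 2 IP libraries, and 0 to 1 with a replicate left out (0 without any 1 of the 4 LPS replicates). Those lower numbered 0, then 1 with DESeq2, 2 with the replicate block, 6 without the 2 IP libraries, and 0 to 2 (over 0 without either WT mock replicate). The cause was not tested. With 2 replicates per group and a biological coefficient of variation of 30.6% on peaks against 8.82% on input genes, small changes in the ratio are out of reach. Ifit1bl2 is limited by its depth of at most 29 reads a library in input.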
